A study of Drosophila melanogaster with 24 samples.

Results

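Odorant-binding proteins (Obps) are small, soluble proteins that cells secrete into the fluid around sensory neurons, into seminal fluid and into the haemolymph. The genes described here are all those of *Drosophila melanogaster* whose symbol begins with Obp and a digit and that have a probe set of their own on the Affymetrix Drosophila Genome 2.0 array, taken over whole males from 8 thermal groups. A probe set is a group of short probes read out as 1 value. Of 18769 probe sets, 50 carried such a symbol alone, and they represented 47 genes of the 11982 with a symbol of their own, each taken through its probe set with the highest mean. Of these 47 genes, 34 had a mean value above 4 on the log2 scale and 13 did not. The Obp gene with the lowest mean above that limit was Obp58d (4.01), and the one with the highest mean below it was Obp99d (3.93). The share above 4 was 72.3% for the Obp genes, against 75.1% for all probe sets.

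In the antenna, support cells at the base of each olfactory hair secrete Obps into the lymph that bathes the dendrites, where they bind hydrophobic odorants and pheromones on the way to the receptors. Other members of the family are made in taste hairs, in fat body, in glia and in the male reproductive tract, and several are passed to the female with the ejaculate. The family arose largely by tandem duplication, so that many members are neighbours on the chromosome. In the Release 6 plus ISO1 MT annotation of RefSeq, 35 of 51 Obp genes lay in 9 runs of neighbours with at most 3 other protein-coding genes between them, and the longest run, Obp56a to Obp56i on arm 2R, held 9. Of the 47 measured genes 26 were on arm 2R, 11 on 3R, 6 on X, 2 on 2L and 2 on 3L. Obp50b, Obp50c and Obp57d had only probe sets shared with another gene and Obp83a had none under its symbol, so these 4 are not among the 47.

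The flies were 6-day-old males of a laboratory stock founded from flies collected in the field in Denmark, with no genetic modification. They had been kept in 1 of 4 regimes from the egg onwards, through development and their days as adults. The regimes were fluctuating around a mean of 25 °C (22 to 30 °C each day), constant 25 °C, fluctuating around a mean of 15 °C (12 to 20 °C each day) or constant 15 °C. Differences between regimes therefore cover development and adult days together. All were moved to constant 20 °C for 18 h, and pools of 20 flies were then either ramped at 0.1 °C per min to 35 °C or kept at 20 °C before freezing. Each of these 8 groups had 3 arrays, 1 pool per array. Each regime came from 1 thermal cabinet and males were pooled across vials, so the spread between arrays is that between pools of 1 cabinet, and a cabinet and its regime cannot be told apart.

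The array of 15 °C fluctuating, ramped to 35 °C, replicate 3 correlated with the others at 0.208 to 0.216, while all other pairs correlated at 0.969 to 0.998, and it was left out, which leaves 23 arrays and n = 2 in that group. Where replicate 1 or 2 of that group is also left out below, 1 array of it remains. Calls, counts and adjusted p from those fits rest on 1 array for that group, which gives no spread of its own. The array of 15 °C constant, 20 °C, replicate 1 had a mean of 10.10 over 12 egg shell and yolk genes, which males should not express, against 4.76 to 5.45 on the 22 others. On that array Obp19c stood at 6.76, against 3.76 and 3.75 on the other arrays of the group and 3.49 to 4.04 on all remaining arrays. Obp99a was also highest there (11.54, against 10.55 to 10.99 on the others). Obp calls that were lost or gained without that library are given with both values.

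All expression values are GC-RMA values on the log2 scale, on which a step of 1 is a doubling. Probe sets differ in how well they bind, so values of different genes are not ranked as amounts of transcript. The 6 Obp genes with the highest means were Obp56g, Obp44a, Obp51a, Obp99c, Obp56d and Obp99b. Obp56g, which is secreted by the ejaculatory bulb and takes part in forming the mating plug, lay between 13.60 and 13.89 on every array. Obp44a, an Obp of glial cells, lay between 13.18 and 13.50, and Obp51a, a seminal fluid protein, between 12.70 and 13.28. Obp99b, a male-biased Obp of the fat body of the head, ranged more widely, between 11.86 and 13.22.

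The spread within groups differed greatly among the genes. The pooled within-group SD was 0.0496 for Obp56g, 0.0451 for Obp44a and 0.0519 for Obp51a, and the median was 0.158 over the Obp genes, against 0.132 over all probe sets. Obp83b, the odorant-binding protein OS-E of antennal hairs, had a within-group SD of 1.15, and 99.9% of all probe sets had a smaller one. The precision of every value below is limited by 3 arrays per group.

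**Figure D1:**
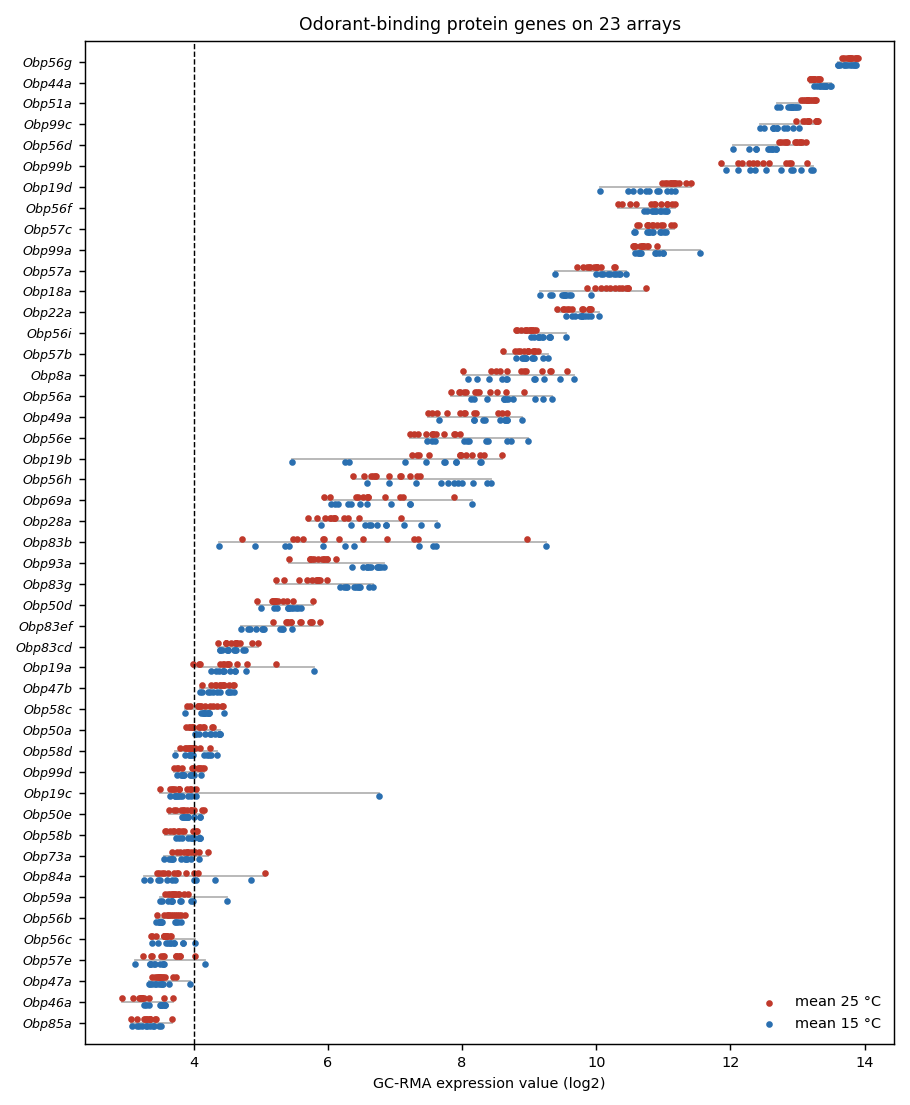
Log2 GC-RMA values of the 47 Obp genes (rows, ordered by mean) on 23 arrays, with each dot 1 array (upper row of dots, mean 25 °C; lower row, mean 15 °C), each grey line the full range and the dashed line the limit of 4. The 13 genes at the bottom have means of at most 4, and Obp83b spans 4.39 to 9.25, while Obp44a spans 13.18 to 13.50.

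The design asks how the Obp genes differed with the mean temperature of the regime, with its daily fluctuation and with the acute ramp to 35 °C. Each was answered by the average of 4 contrasts, 1 per combination of the other factors, and by the single contrasts. Differences are log2 differences with their standard error (SE) from limma, and a difference was called at a Benjamini-Hochberg adjusted p under 0.05 over all 18769 probe sets.

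Mean temperature moved more Obp genes than the other factors did in number of calls, but the share called was below that of the array as a whole. Over the average of the 4 contrasts, 20 of 47 Obp genes (42.6%) were called, 7 higher and 13 lower in 25 °C flies than in 15 °C flies. The share over all probe sets was 56.0%, with 28.9% higher and 27.1% lower. Among genes above 4 the call rate was 50.0% for Obps (17 of 34), against 70.6% for all probe sets of that level. The median difference was -0.08 over the Obp genes and 0.00 over all probe sets. Markers of other tissues differed between the same flies. Of 17 testis markers 16 fell and 1 rose in 25 °C flies, and their mean level did not overlap, with 9.39 to 10.02 in 25 °C flies and 10.07 to 10.31 in 15 °C flies. Of 5 fat body markers 4 rose and 1 fell (10.11 to 10.57 in 25 °C flies, 9.74 to 10.30 in 15 °C flies), of 11 photoreceptor markers 9 rose and none fell (9.28 to 10.02 in 25 °C flies, 8.81 to 9.75 in 15 °C flies), and of 18 accessory gland markers 6 rose and 11 fell (11.40 to 11.84 in 25 °C flies, 11.69 to 12.07 in 15 °C flies). Their part in the Obp values was not tested. In pools of whole flies, fewer cells of a type and less RNA per cell cannot be told apart. In 24 Obp genes at least 1 of the 4 single contrasts was called, against 59.6% of probe sets. In 6 Obp genes the call was made in all 4 single contrasts, as for 21.8% of probe sets, and in 4 the 12 arrays of 25 °C flies did not overlap the 11 of 15 °C flies, as for 13.1% of probe sets.

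The 7 genes that were higher in 25 °C flies were Obp18a, Obp19b, Obp99c, Obp83ef, Obp56d, Obp19d and Obp51a. Obp18a lay between 9.86 and 10.75 (median 10.31) in 25 °C flies and between 9.16 and 9.92 (median 9.52) in 15 °C flies. The ranges met only at the lowest array of 25 °C flies, and the average difference was 0.80 ± 0.06 (adjusted p = 6.93e-10, n = 12 and 11). Obp56d, which is made in antennae and taste organs, lay between 12.73 and 13.13 in 25 °C flies and between 12.03 and 12.68 in 15 °C flies. Obp51a lay between 13.04 and 13.28 in 25 °C flies and between 12.70 and 13.00 in 15 °C flies. Neither of these genes showed any overlap, with differences of 0.46 ± 0.05 for Obp56d and 0.29 ± 0.03 for Obp51a.

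Obp99c was higher by 0.49 ± 0.05, with values of 12.98 to 13.31 in 25 °C flies and 12.45 to 13.02 in 15 °C flies. Obp83ef was higher by 0.48 ± 0.08, with 5.19 to 5.89 in 25 °C flies and 4.71 to 5.46 in 15 °C flies. Both overlapped slightly. Between constant flies at 20 °C Obp83ef differed by 0.48 (adjusted p = 0.0114), and by 0.37 (adjusted p = 0.0668) without the array of 15 °C constant, 20 °C, replicate 1. Obp19d, which is found in antennae and taste organs, was higher by 0.36 ± 0.08, a difference called in both constant contrasts (0.51 at 20 °C and 0.63 after ramping) and in neither fluctuating one. The call at 20 °C was lost without replicate 2 of constant 15 °C (adjusted p = 0.0578) or replicate 3 of constant 25 °C (adjusted p = 0.0504). The probe set of Obp19d carries the suffix that Affymetrix gives to sets that can match transcripts of more than 1 gene.

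Obp19b, an Obp of labellar taste hairs, differed in 1 place. After ramping, the constant groups had 7.33, 7.99 and 7.36 in 25 °C flies and 6.31, 5.46 and 6.26 in 15 °C flies. The 3 arrays of ramped 15 °C constant flies were the lowest of all 23, and the contrast between these groups was 1.55 ± 0.29 (adjusted p = 0.000151). The other 3 mean temperature contrasts of Obp19b were not called, and its average was 0.52 ± 0.15.

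The 4 largest falls in 25 °C flies were those of Obp56h, Obp93a, Obp83g and Obp28a. Obp56h, which in males affects mating behaviour and cuticular hydrocarbons, lay between 6.38 and 7.38 (median 6.81) in 25 °C flies and between 6.59 and 8.42 (median 7.88) in 15 °C flies. Its average difference was -0.83 ± 0.18 (adjusted p = 0.000448), called in both constant contrasts. At 20 °C the constant contrast was -1.06, and it was -0.89 (adjusted p = 0.0727) without the array of 15 °C constant, 20 °C, replicate 1, and also missed the threshold without replicate 1 of constant 25 °C (adjusted p = 0.0853). After ramping, the array of 15 °C constant, replicate 2 stood at 6.59, against 8.17 and 8.37 on the others of its group, and the contrast of -1.07 was -1.63 without it. Without replicate 1 or replicate 3 of that group the call was lost (adjusted p = 0.0919 and 0.125).

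Obp93a and Obp83g separated the mean temperatures fully. Obp93a lay between 5.42 and 6.12 in 25 °C flies and between 6.36 and 6.84 in 15 °C flies, a difference of -0.81 ± 0.06 (adjusted p = 2.04e-10). Obp83g lay between 5.23 and 5.98 in 25 °C flies and between 6.18 and 6.67 in 15 °C flies, a difference of -0.68 ± 0.08. Both were called in each of the 4 single contrasts, where Obp93a differed by -0.65 to -0.94 and Obp83g by -0.65 to -0.75. Of these, the call of Obp83g in ramped fluctuating flies was lost without replicate 2 from 15 °C (-0.49, adjusted p = 0.126). Obp83g and Obp83ef are neighbours on 3R in a run with Obp83cd. They moved in opposite directions, and Obp83cd (0.07) was not called.

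Obp28a, an Obp of antennal hairs linked to the response to fruit odours, lay between 5.71 and 7.09 (median 6.09) in 25 °C flies and between 5.89 and 7.63 (median 6.73) in 15 °C flies. The ranges overlapped widely, and the average difference was -0.64 ± 0.14 (adjusted p = 0.000529). Obp56e, a seminal fluid protein, was lower by 0.53 on the log2 scale, with values of 7.23 to 7.98 in 25 °C flies and 7.47 to 8.99 in 15 °C flies. The other falls were smaller: Obp56a (-0.44), Obp49a (-0.36), Obp56i (-0.26), Obp50a (-0.19), Obp44a (-0.13) and, among genes with means of at most 4, Obp46a (-0.21), Obp58b (-0.16) and Obp56c (-0.15). The call of Obp58b was lost without replicate 2 of the ramped 15 °C fluctuating group (adjusted p = 0.0857), and that of Obp56c without that array or any 1 of 5 others (adjusted p up to 0.12).

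Within the run of 9 neighbours on 2R, the genes did not move together. With mean temperature, Obp56a, Obp56c, Obp56e, Obp56h and Obp56i fell in 25 °C flies, Obp56d rose, and Obp56b (0.09), Obp56f (-0.09) and Obp56g (0.07) were not called. Of the run Obp19a to Obp19d on X, Obp19b and Obp19d rose and Obp19a (-0.12) and Obp19c (-0.27) were not called. Further genes passed the test in 1 mean temperature contrast only: Obp99a (-0.46), Obp47b (0.28) and Obp57e (0.39) between the constant groups at 20 °C, Obp85a (0.27) between those after ramping, Obp22a (-0.24) and Obp56f (-0.45) between the fluctuating groups at 20 °C and Obp8a (-0.52) between those after ramping. Without replicate 1 of constant 15 °C at 20 °C, Obp99a differed by -0.22 (adjusted p = 0.106) and Obp57e by 0.38 (adjusted p = 0.0798), and 5 of the 6 calls besides Obp99a, all but that of Obp56f, were lost when at least 1 array of the groups compared was left out. Obp85a differed by 0.17 (adjusted p = 0.225) without replicate 2 of ramped constant 25 °C. In the single contrasts the number of calls among the 47 genes was 15 for constant regimes at 20 °C (11 without that replicate 1), where 43.0% of all probe sets were called, and 14 after ramping, where 43.6% were. For fluctuating regimes it was 12 at 20 °C, where 35.3% of probe sets were called, and 10 after ramping, where 33.1% were, or 6 without replicate 2 from 15 °C. Without replicate 1 of constant 15 °C at 20 °C, 2 further genes were called in the average, Obp99b (-0.26, adjusted p = 0.0479, against -0.16 and 0.318 with it) and Obp22a (-0.11, adjusted p = 0.0363, against -0.09 and 0.105 with it). Obp22a was then also called between the ramped fluctuating groups (-0.26, adjusted p = 0.0366, against 0.0537 with it). Shares over all probe sets are not given for the fits without an array.

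**Figure D2:**
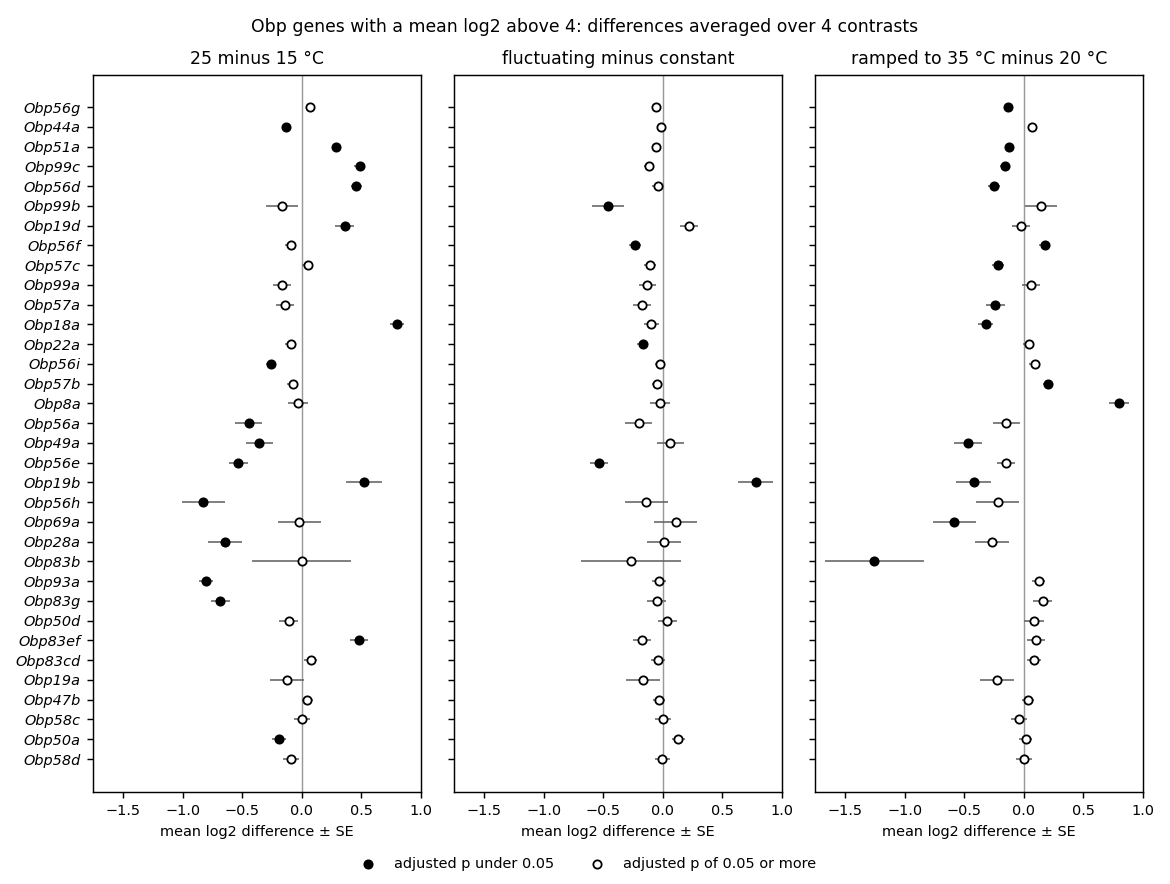
Log2 difference ± SE (x axis) for the 34 Obp genes with a mean above 4 (rows), averaged over 4 contrasts, for 25 minus 15 °C, fluctuating minus constant, and ramped to 35 °C minus 20 °C. Filled points, 17 in the left panel, 5 in the middle and 14 in the right, have a limma adjusted p under 0.05 over all probe sets, with Obp18a at 0.80 and Obp56h at -0.83 in the left panel.

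**Figure D3:**
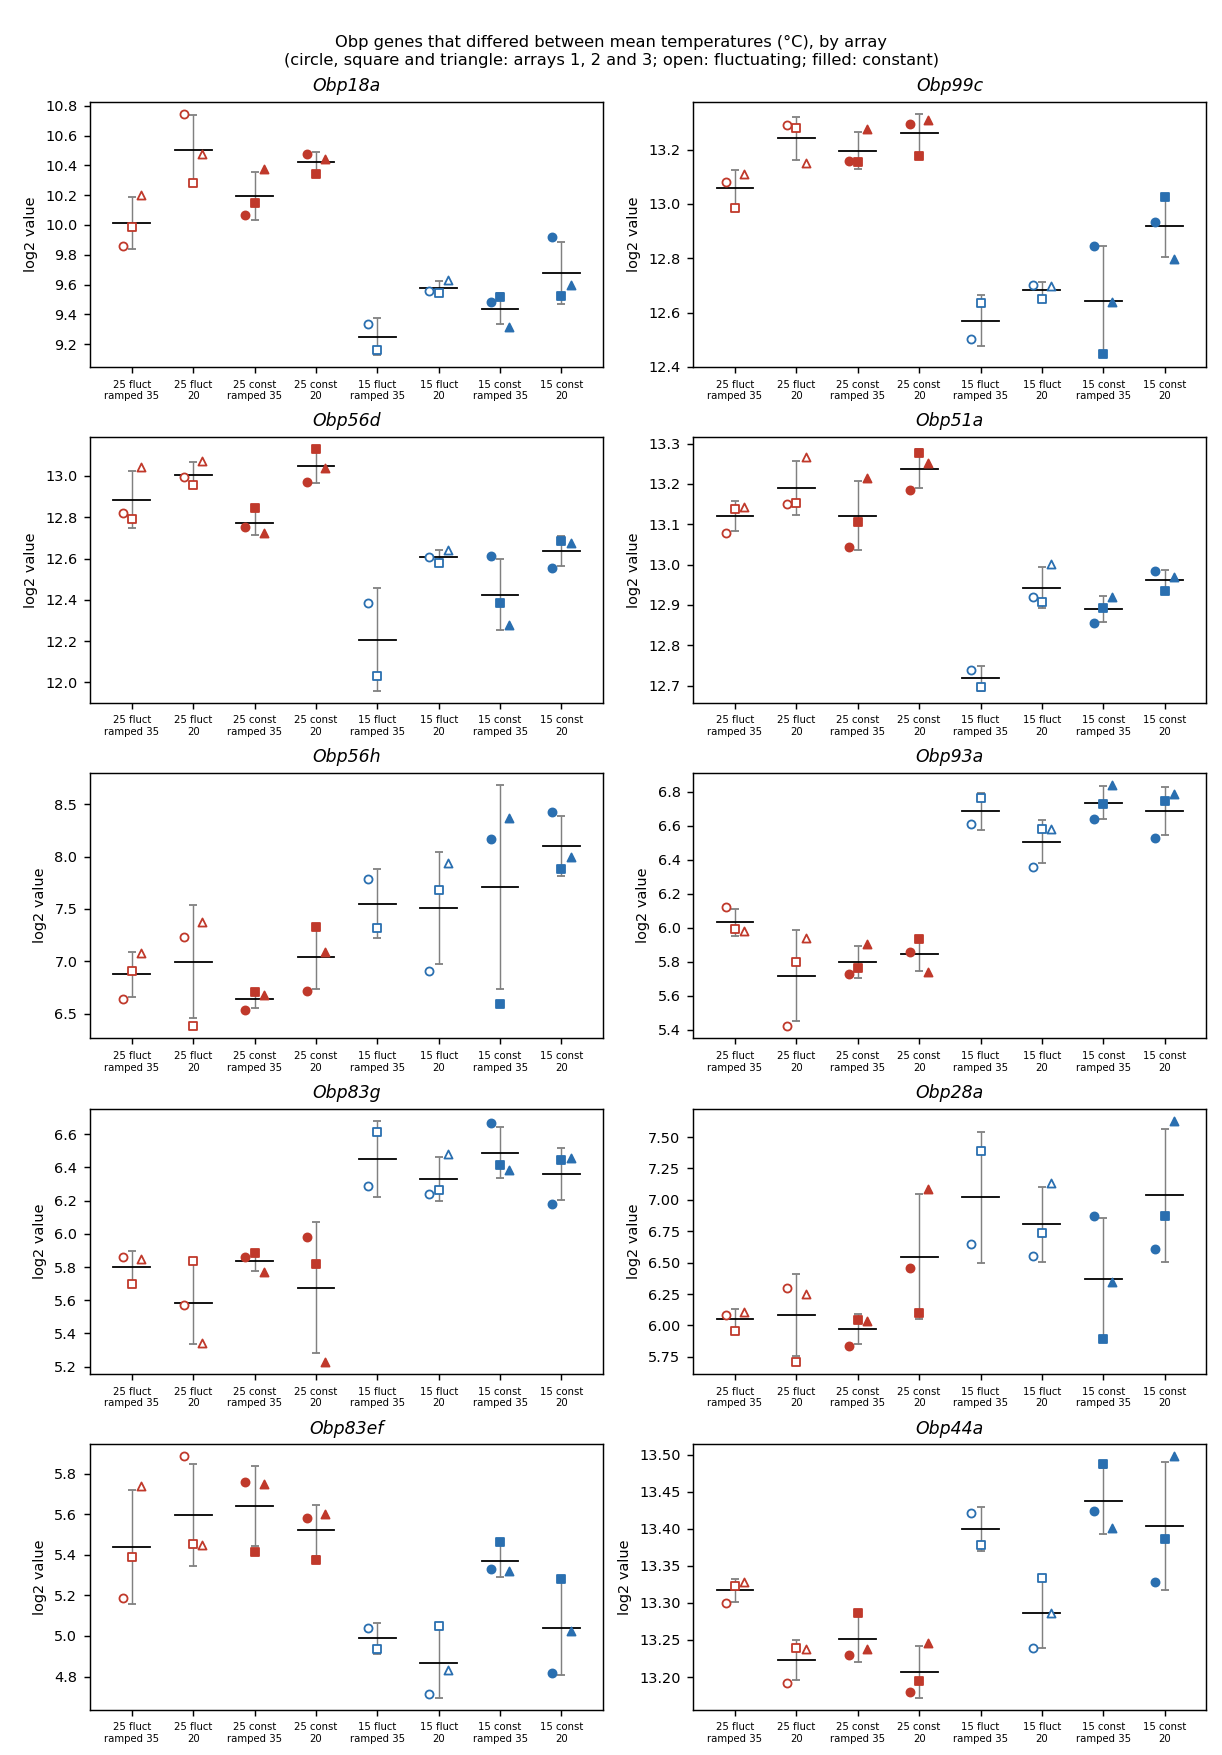
Log2 values on every array for 10 Obp genes in the 8 groups (x axis: mean temperature, regime and assay temperature), with red for mean 25 °C, blue for mean 15 °C, a horizontal line at the group mean and error bars of 1 SD (n = 3, or 2 in 15 °C fluctuating ramped to 35 °C). The red and blue arrays do not overlap for Obp56d, Obp51a, Obp93a and Obp83g.

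Fluctuation was followed by few changes in the Obp genes. Over the average of the 4 contrasts, 5 of 47 genes (10.6%) were called, 1 higher and 4 lower in fluctuating than in constant regimes, against 15.2% of all probe sets, 8.82% higher and 6.41% lower. In none of the 47 genes, and in 0.0213% of probe sets, did the 11 arrays of the fluctuating regimes lie apart from the 12 of the constant ones. At least 1 of the 4 single contrasts was called in 4 Obp genes, against 5.15% of probe sets. At 15 °C, 1 gene was called at 20 °C (2.16% of probe sets) and 3 after ramping (2.22%). At 25 °C, 1 was called at 20 °C (0.938%) and 0 after ramping (1.05%). In the latter contrast, 9 of 47 Obp genes had an unadjusted limma p under 0.05, against 3851 of 18769 probe sets. The 3 genes at 15 °C after ramping were 8 without replicate 1 of the ramped 15 °C fluctuating group and 0 without its replicate 2, and the 1 gene at 25 °C was 0 without any 1 of 3 arrays. Without replicate 1 or 2 of the ramped 15 °C fluctuating group, that group had 1 array left. The count of 0 at 25 °C after ramping was 2 without replicate 1 of constant 15 °C at 20 °C (Obp56f, adjusted p = 0.0468, and Obp22a, -0.32, adjusted p = 0.0487, against 0.0684 with it) or replicate 1 of ramped constant 25 °C, and 1 without replicate 3 of ramped 25 °C fluctuating. For 15 °C at 20 °C the count was 2 without replicate 2 of the constant group. The shares over all probe sets in fits without an array are not given. These counts therefore cannot tell a change in Obp genes from one in all calls.

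The gene that rose was Obp19b, by 0.78 ± 0.15 on average (adjusted p = 0.00204). Among ramped flies from 15 °C it stood at 7.73 and 8.28 in the fluctuating regime, against 6.31, 5.46 and 6.26 in the constant regime. These groups differed by 1.99 ± 0.32 (adjusted p = 0.00719), the largest single difference among the 47 genes over the fluctuation contrasts. Without replicate 2 of the fluctuating group it was 1.71 (adjusted p = 0.119). Its neighbour Obp19d stood at 11.12 and 11.18 in the same fluctuating group, against 10.78, 10.06 and 10.54 in the constant group, a difference of 0.68 ± 0.17 (adjusted p = 0.0344). Without replicate 2 of the fluctuating group it was 0.66 (adjusted p = 0.24), and without replicate 2 of the constant group 0.48 (adjusted p = 0.159).

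The 4 genes that fell were Obp56e, Obp99b, Obp56f and Obp22a, and 3 of them encode seminal fluid proteins. Obp56e of flies from 15 °C at 20 °C stood at 7.55, 8.11 and 8.08 in the fluctuating regime, against 8.99, 8.68 and 8.73 in the constant regime. After ramping it stood at 7.60 and 7.47 in the fluctuating regime, against 8.35, 8.04 and 8.38 in the constant regime. The differences were -0.88 ± 0.15 (adjusted p = 0.00468) at 20 °C and -0.72 ± 0.17 (adjusted p = 0.0268) after ramping. The contrast after ramping was -0.66 (adjusted p = 0.237) without replicate 2 of the fluctuating group, and also missed the threshold without replicate 1 (0.0924) or replicate 3 (0.0723) of the constant group.

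Obp56f moved in flies from 25 °C. At 20 °C it stood at 10.32, 10.51 and 10.38 in the fluctuating regime, against 11.05, 10.96 and 10.87 in the constant regime. After ramping it stood at 10.59, 10.82 and 10.87 in the fluctuating regime, against 11.12, 11.05 and 11.18 in the constant regime. The difference of -0.56 ± 0.09 at 20 °C was called (adjusted p = 0.00775), while that of -0.36 after ramping was not (adjusted p = 0.0577). The call at 20 °C was lost, at adjusted p of 0.0519 to 0.0659, without replicate 1 of the constant group or without replicate 1 or 3 of the fluctuating group.

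Obp22a showed the same arrangement at a smaller size. In flies from 25 °C it stood at 9.41 to 9.64 over the 6 arrays of the fluctuating regime, against 9.79 to 9.92 over the 6 of the constant regime. In flies from 15 °C the regimes overlapped, and the average difference of -0.17 ± 0.05 (adjusted p = 0.0208) was lost without replicate 1 of the ramped 15 °C fluctuating group (adjusted p = 0.0515). Obp99b differed by -0.46 ± 0.13 on average, with 11.86 to 12.93 (median 12.30) in fluctuating regimes and 12.11 to 13.22 (median 12.85) in constant ones. Its adjusted p of 0.0249 was 0.0838 without replicate 2 of the ramped 15 °C fluctuating group and 0.0508 without replicate 1 of the ramped 15 °C constant group.

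Of the 7 measured Obp genes that encode seminal fluid proteins, 3 fell with fluctuation and none rose, where 6.41% of all probe sets fell and 8.82% rose, with a median difference of -0.06, against 0.00 over all probe sets. Markers of the accessory gland, which makes most seminal fluid proteins, moved in the same comparison: 12 of 18 fell and none rose, with a median of -0.14. Their mean level was 11.40 to 11.92 over the arrays of fluctuating regimes and 11.75 to 12.07 over those of constant ones. Of the photoreceptor markers, 11 of 11 rose with fluctuation, with a mean level of 9.47 to 10.02 in fluctuating and 8.81 to 9.87 in constant regimes. The mean level of 5 fat body markers was 9.74 to 10.32 in fluctuating and 9.86 to 10.57 in constant regimes. For 4 markers of the ejaculatory bulb and duct it was 13.56 to 13.86 and 13.63 to 13.86. The part of these tissues in the Obp values was not tested.

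**Figure D4:**
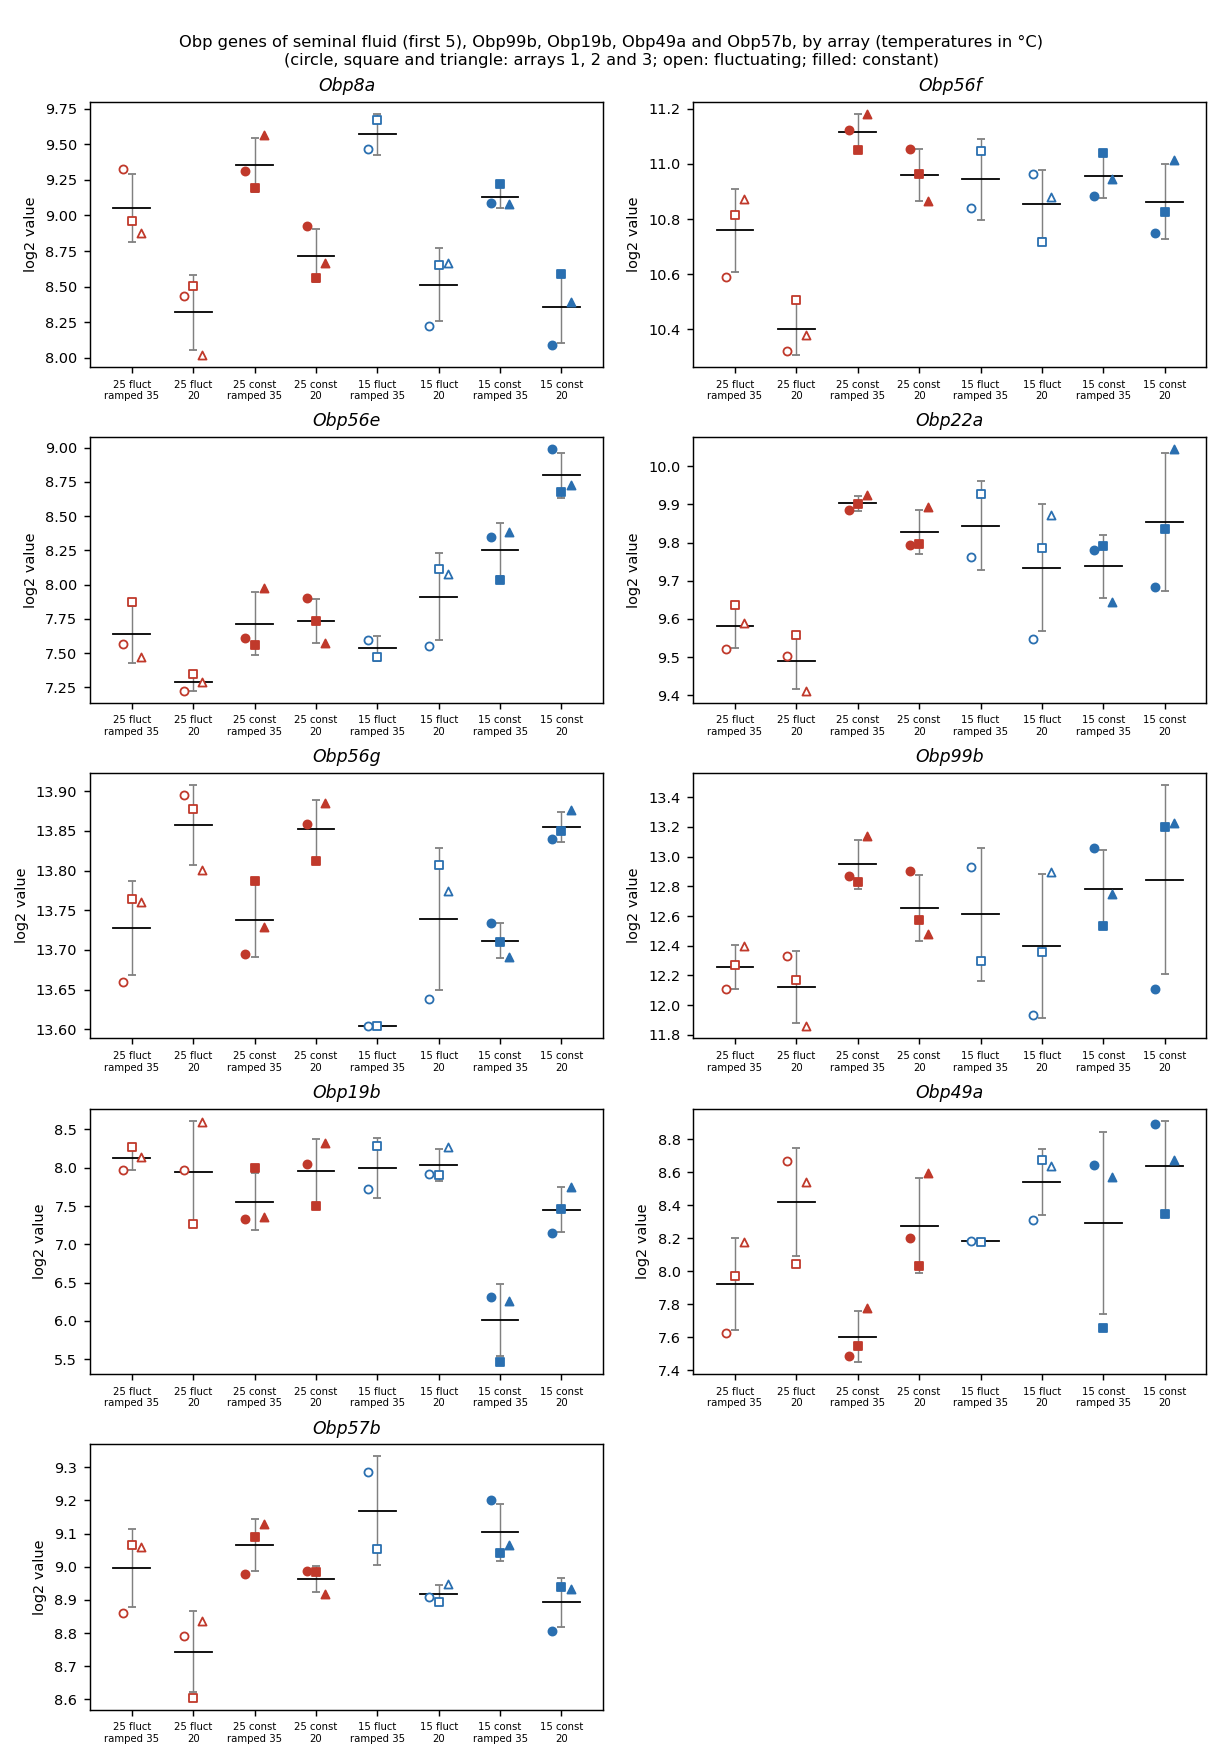
Log2 values on every array for 9 Obp genes in the 8 groups, drawn as for the genes that differed with mean temperature: open symbols for fluctuating and filled symbols for constant regimes, red for mean 25 °C and blue for mean 15 °C, lines at group means and error bars of 1 SD. Obp8a is higher in each ramped group than in the matching group at 20 °C, and Obp19b is lowest, at 5.46 to 6.31, in ramped flies from 15 °C constant.

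Ramping to 35 °C was followed by more falls than rises among the Obp genes. Over the average of the 4 contrasts, 14 of 47 genes (29.8%) were called, 3 higher and 11 lower in ramped flies, against 33.3% of all probe sets. Of all probe sets, 16.2% were called higher and 17.0% lower. The 14 genes all had means above 4, where the share called was 41.2% for Obps, against 41.8% for all probe sets of that level. None of the 47 genes separated the 11 ramped arrays fully from the 12 at 20 °C, as 4.25% of probe sets did. At least 1 single contrast was called in 13 Obp genes, against 27.5% of probe sets. By regime, these were 4 genes in 25 °C fluctuating flies (16.6% of probe sets), 4 in 25 °C constant (18.5%), 3 in 15 °C fluctuating (13.5%) and 5 in 15 °C constant (14.5%). The 4 of 25 °C fluctuating were 1 without replicate 1 at 20 °C and 2 without ramped replicate 3. The 4 of 25 °C constant were 2 without replicate 2 of either group and 1 without ramped replicate 1. The 5 of 15 °C constant were 3 without replicate 2 at 20 °C and 2 without ramped replicate 2. For all fits without an array, the share over all probe sets is not given. Without replicate 1 of the ramped 15 °C fluctuating group the counts were 7 in 25 °C constant, 7 in 15 °C fluctuating and 9 in 15 °C constant, and without its replicate 2 they were 7 in 25 °C constant and 9 in 15 °C constant.

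Obp8a, a seminal fluid protein, rose in each of the 4 regimes, as 7.26% of probe sets were called in all 4. In flies from the 25 °C fluctuating regime it stood at 9.32, 8.96 and 8.88 after ramping, against 8.44, 8.51 and 8.02 at 20 °C. In flies from constant 25 °C it stood at 9.31, 9.19 and 9.56 after ramping, against 8.92, 8.56 and 8.66 at 20 °C. In flies from the 15 °C fluctuating regime it stood at 9.47 and 9.67 after ramping, against 8.22, 8.65 and 8.67 at 20 °C. In flies from constant 15 °C it stood at 9.09, 9.22 and 9.08 after ramping, against 8.09, 8.59 and 8.40 at 20 °C. The differences were 0.64 to 1.05, and the average was 0.80 ± 0.08 (adjusted p = 7.49e-08).

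Obp57b rose by 0.20 ± 0.04 and Obp56f by 0.17 ± 0.05 on average, each called in the 25 °C fluctuating regime alone among the single contrasts. Both single calls were lost without replicate 1 at 20 °C (adjusted p = 0.0603 for Obp57b and 0.0544 for Obp56f). In that regime Obp56f stood at 10.59, 10.82 and 10.87 after ramping, against 10.32, 10.51 and 10.38 at 20 °C. Seminal fluid members moved both ways: of the 7, Obp8a and Obp56f rose, Obp56g (-0.13) and Obp51a (-0.12) fell, and 3 were not called. Among the 18 accessory gland markers 1 rose and 7 fell with ramping, with a median of -0.07. Over all probe sets, 16.2% rose and 17.0% fell.

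The largest falls with ramping were those of Obp83b and Obp69a, both secreted by support cells of antennal hairs. Obp83b lay between 4.39 and 7.61 (median 5.63) in ramped flies and between 5.36 and 9.25 (median 6.91) in flies at 20 °C. Obp69a lay between 5.95 and 7.22 (median 6.31) in ramped flies and between 6.34 and 8.14 (median 6.90) in flies at 20 °C. The ranges overlapped widely, and the average differences were -1.25 ± 0.42 (adjusted p = 0.0238) for Obp83b and -0.58 ± 0.18 (adjusted p = 0.0160) for Obp69a. Both calls were lost without replicate 1 of the ramped 15 °C fluctuating group, where the differences were -0.85 (adjusted p = 0.112) and -0.47 (adjusted p = 0.0649).

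In constant regimes the differences of Obp83b were -2.06 at 25 °C and -2.25 at 15 °C, and in fluctuating regimes they were -0.31 at 25 °C and -0.39 at 15 °C. None of the 4 was called (adjusted p = 0.0716 to 0.897) on 23 arrays. Without replicate 1 of constant 15 °C at 20 °C, the difference in constant 15 °C was -2.89 for Obp83b (adjusted p = 0.0316, against 0.0716 with it) and -1.44 for Obp69a (adjusted p = 0.00713, against -1.04 and 0.0538 with it), and the fall of Obp69a in constant 25 °C had an adjusted p of 0.0249, against 0.053 with it. For Obp83b the difference between the regimes, 1.80 ± 0.84, was not called on 23 arrays (adjusted p = 0.941). Of the 8 measured genes on the antennal list, 3 fell and none rose with ramping: Obp83b, Obp69a and Obp56d (-0.25). Obp19a was not called through its probe set with the highest mean (4.54), at -0.23 (adjusted p = 0.26). Its other probe set, with a mean of 4.53, was called at -0.78 (adjusted p = 0.0313). Over all probe sets 17.0% fell and 16.2% rose. The median of that list was -0.26, against 0.00 over all probe sets.

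The other falls were those of Obp49a, Obp19b, Obp18a, Obp57a, Obp57c and Obp99c. Obp49a, by which taste hairs let bitter compounds suppress the response to sugar, lay between 7.49 and 8.64 (median 7.97) in ramped flies and between 8.03 and 8.89 (median 8.57) at 20 °C, a difference of -0.47 ± 0.11 (adjusted p = 0.0027). Obp18a differed by -0.32 ± 0.06, and the change was called singly in 25 °C fluctuating flies (-0.49, and -0.37 with adjusted p = 0.0565 without replicate 1 at 20 °C). Obp57a (-0.24), Obp57c (-0.22) and their neighbour Obp57b (0.20) on 2R moved in different directions. The fall of Obp57a was -0.12 (adjusted p = 0.076) without replicate 2 of the ramped 15 °C fluctuating group and -0.36 without replicate 1. Obp19b differed by -0.42 ± 0.15 (adjusted p = 0.0334), a call lost when any 1 of 10 arrays was left out (adjusted p up to 0.101). Among single contrasts it was called in 15 °C constant flies, with 6.31, 5.46 and 6.26 after ramping, against 7.15, 7.46 and 7.75 at 20 °C, a difference of -1.44 ± 0.29 (adjusted p = 0.00126).

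Further genes passed the test singly with ramping. In constant 15 °C these were Obp56e (-0.54, and -0.45 with adjusted p = 0.0858 without replicate 1 at 20 °C), Obp99c (-0.27, and -0.18 with adjusted p = 0.252 without ramped replicate 2 and -0.27 with adjusted p = 0.098 without replicate 1 at 20 °C) and Obp47b (0.33). In 15 °C fluctuating flies they were Obp56d (-0.40, and -0.23 with adjusted p = 0.364 without replicate 2 of the ramped group) and Obp51a (-0.22). In constant 25 °C they were Obp56a (-0.73), Obp49a (-0.67) and Obp57c (-0.30). Each of these calls in a single contrast was lost when at least 1 array of its groups was left out, with adjusted p of up to 0.364. Without replicate 1 of constant 15 °C at 20 °C, Obp56d was also called in constant 25 °C (-0.27, adjusted p = 0.0488, against 0.0512 with it) and Obp93a in 25 °C fluctuating flies (0.31, adjusted p = 0.0475, against 0.0601 with it).

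**Figure D5:**
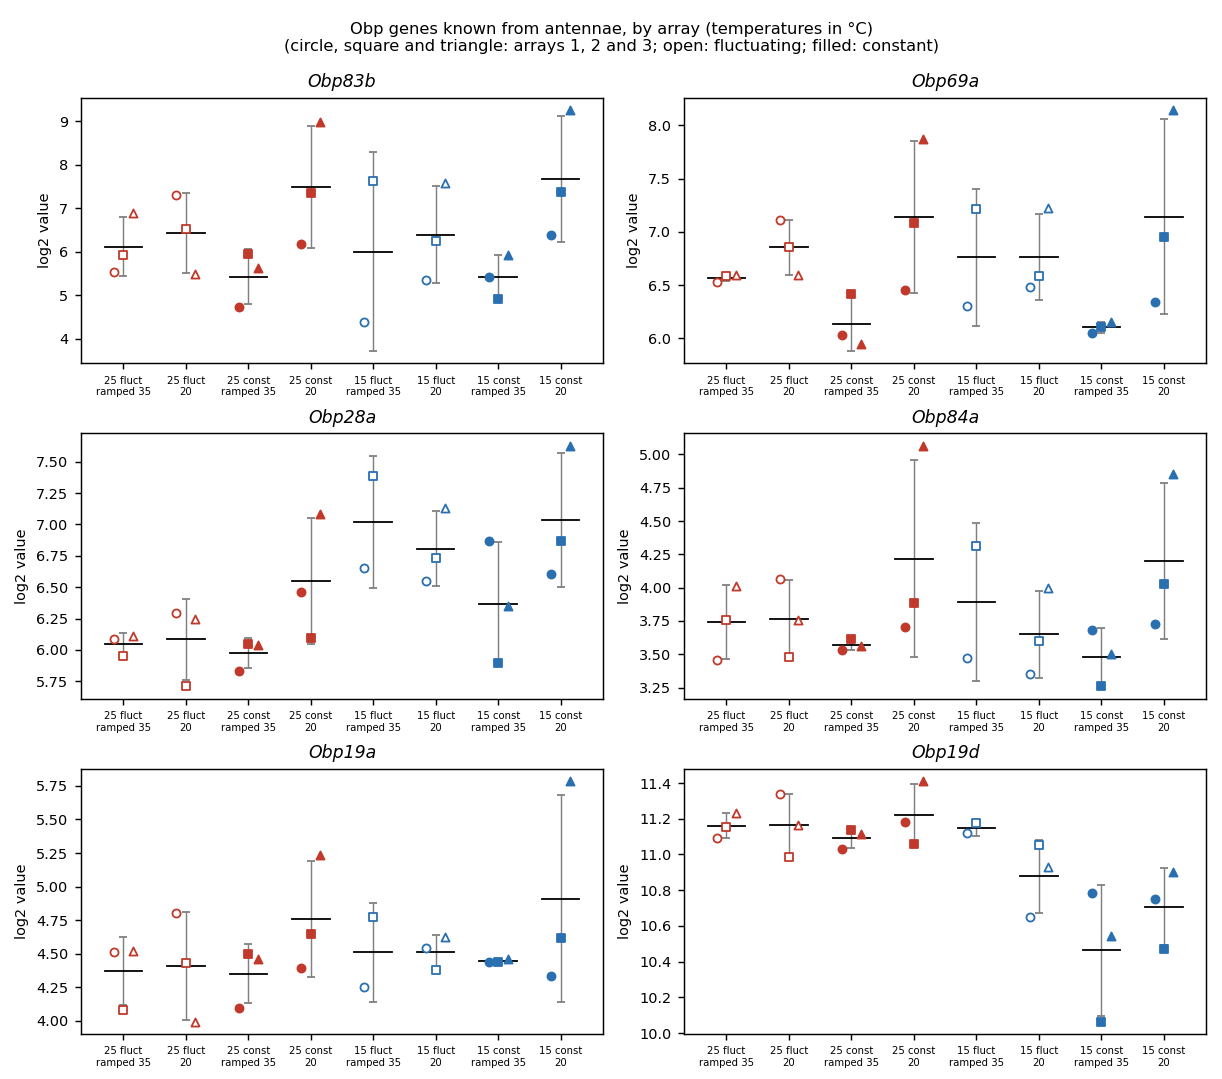
Log2 values on every array for 6 of the 8 measured Obp genes of the antennal list in the 8 groups. Circle, square and triangle mark replicates 1, 2 and 3, open symbols fluctuating and filled symbols constant regimes, with lines at group means and error bars of 1 SD. Obp59a and Obp56d of that list are not drawn and follow Obp83b in 5 and 3 groups. The array with the highest Obp83b in a group is also the highest for Obp69a and Obp19a in all 8 groups, and the symbols of Obp28a and Obp84a follow it in 7.

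Several antennal genes varied together between arrays of the same group. This pattern was noticed in the values and is given as a description. In constant flies from 25 °C at 20 °C, Obp83b stood at 6.17, 7.34 and 8.97 on replicates 1, 2 and 3 and Obp69a at 6.46, 7.08 and 7.88. In constant flies from 15 °C at 20 °C, Obp83b stood at 6.39, 7.36 and 9.25 and Obp69a at 6.34, 6.95 and 8.14. The highest array was replicate 3 in both groups and for both genes. The array highest for Obp83b was also highest for Obp69a and Obp19a in 8 of 8 groups, for Obp28a and Obp84a in 7 and for Obp19d and Obp50a in 6. Over all probe sets, 0.048% matched Obp83b in 8 groups, 0.33% in at least 7 and 2.25% in at least 6, Obp83b itself counted. The remaining measured genes on the antennal list, Obp59a and Obp56d, matched in 5 and 3 groups. At least 5 groups matched in 10.6% of probe sets and at least 3 in 61.9%.

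Besides the 3 Obp genes, 6 probe sets matched in all 8 groups, among them that of a10, another secreted protein of antennal support cells. The antennal gene a5 matched in 7, lush, an Obp-family gene outside the symbol rule that takes part in pheromone detection, and the odorant receptor gene Or59b in 6, and Orco, the co-receptor of the odorant receptors, in 5. The other 8 of the 13 antennal markers (Snmp1, Or22a, Or42b, Or47b, Or67d, Ir8a, Ir25a and Ir76b) matched in 1 to 4 groups, and 61.9% of all probe sets matched in at least 3. The mean level over the 8 antennal markers with a mean above 4 lay between 4.87 and 5.63 over the 23 arrays. The part of the amount of antennal tissue in a pool was not tested.

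The effect of mean temperature differed between regimes in 2 Obp genes, Obp8a and Obp56f, against 2.91% of all probe sets. For Obp8a the mean temperature difference in fluctuating minus that in constant regimes was -0.65 ± 0.16 (adjusted p = 0.0382). The single differences were -0.52 in fluctuating flies after ramping and -0.19 at 20 °C, against 0.23 in constant flies after ramping and 0.36 at 20 °C. For Obp56f the value was -0.45 ± 0.10 (adjusted p = 0.0198), with -0.18 after ramping and -0.45 at 20 °C in fluctuating flies, against 0.16 after ramping and 0.10 at 20 °C in constant flies. The call of Obp8a was lost when any 1 of 12 arrays was left out (adjusted p up to 0.0813), and that of Obp56f without replicate 2 of the ramped 15 °C fluctuating group (adjusted p = 0.0526). The mean temperature effect after ramping minus that at 20 °C was called for 0 Obp genes (1.1% of probe sets). At an unadjusted limma p under 0.05 there were 4 Obp genes of 47, against 2058 of 18769 probe sets. The fluctuation effect after ramping minus that at 20 °C was called for 0 of 18769 probe sets. Here 10 Obp genes of 47 had an unadjusted limma p under 0.05, against 980 of all probe sets.

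The list of other genes of antennal reception held 45 measured genes: 29 odorant receptors, 10 ionotropic receptors, the gustatory receptors Gr21a and Gr63a, which detect carbon dioxide, Orco, Snmp1, lush and the ammonium transporter Amt. Of the ionotropic receptors, Ir21a, Ir93a and Ir40a serve the sensing of temperature and humidity. Of the 45 genes 12 had a mean above 4. With mean temperature 3 rose and 13 fell in 25 °C flies (56.0% of all probe sets were called). With fluctuation 0 were called by limma (15.2% of all probe sets). For fluctuation, 2 of the 45 genes had an unadjusted limma p under 0.05, against 5519 of 18769 probe sets. With ramping 5 rose and 1 fell (33.3% of all probe sets were called). The medians of the list were -0.07, 0.00 and 0.01. The largest of these differences were those of lush, which was higher by 0.70 ± 0.18 in 25 °C flies (adjusted p = 0.00241) and lower by 0.54 on the log2 scale after ramping (adjusted p = 0.0273), while Orco was lower by 0.27 in 25 °C flies. Of 3 measured genes of the chemosensory protein family, another family of small secreted carriers, Phk-3 fell with fluctuation (-0.41) and with ramping (-0.32), and a10 differed by -0.50 with ramping without a call (adjusted p = 0.0861).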

How the data were processed

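Total RNA of pools of 20 males was hybridised to 24 arrays. The deposited log2 values are GC-RMA expression values: per the methods, the authors corrected background, normalised and summarised probes with the package gcrma in R. The values could not be recomputed here from probe intensities. Arrays have no depth, and their number limits the precision. Of 18952 probe sets, 183 controls were left out. Of the 18769 tested, 13647 carried 1 gene symbol in GEO's platform annotation, 402 several and 4720 none. All 47 Obp symbols matched a RefSeq gene number, with 0 updated.

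Group means of 8 groups (23 arrays, with 1 failed array left out) entered 1 linear model in limma 3.58.1 (R 4.3.3) with moderated variances. Every adjusted p is limma's, adjusted by Benjamini-Hochberg within a contrast over the 18769 probe sets, and 0.05 was the threshold. From 1 fit came 12 single contrasts, 3 averages and 3 interactions. The fit was tested on simulated data. Tables and figures were made in Python 3.11.15 with matplotlib 3.10.9. Values on every array, in the text or plots, are given for Obp genes with a mean above 4 that are among the 6 highest, among the 4 largest rises or falls called in an average, or called in an interaction. Others are named where called singly. The genes, gene lists (written by hand from textbook knowledge) and tests were chosen with earlier results of these data known. Alternatives were all 24 arrays, 22 arrays, leaving out each array, a variance trend, a replicate block, median centring, only probe sets with a mean of at least 4, only the arrays of a contrast, other probe sets and a threshold of 0.01. Coordinates are not given, since the array files name no genome build. No sequence of these genes was used here.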

Additional observations from a re-analysis of the deposited data

Results flagged for a closer look

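By a test of the difference itself, the effect of mean temperature differed between regimes in 2 of the 47 Obp genes (4.26%), against 2.91% of all probe sets. Both genes encode seminal fluid proteins. Obp8a had a mean temperature effect in fluctuating minus that in constant regimes of -0.65 (limma, adjusted p = 0.0382), a call lost when any 1 of 12 arrays was left out (adjusted p up to 0.0813) and with the replicate number as a block (0.0596), and its mean temperature differences were below 0 in both fluctuating contrasts and above 0 in both constant ones. Obp56f had a value of -0.45 (adjusted p = 0.0198, and 0.0526 without replicate 2 of the ramped 15 °C fluctuating group), with the same arrangement of signs. For the average of the 4 contrasts, mean temperature was not called for either gene, with -0.03 for Obp8a and -0.09 for Obp56f.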

How the results depend on the processing

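On 23 arrays the number of Obp genes called was 20, 5 and 14 for the averages of mean temperature, fluctuation and ramping. Leaving out each array in turn gave 19 to 23, 4 to 7 and 13 to 15. For mean temperature in constant flies at 20 °C and after ramping, and in fluctuating flies at 20 °C and after ramping, it gave 11 to 15, 11 to 14, 10 to 13 and 6 to 14. For fluctuation at 15 °C (20 °C, then ramped) and at 25 °C (likewise) it gave 1 to 2, 0 to 8, 0 to 1 and 0 to 2. For ramping it gave 2 to 9 in constant and 2 to 7 in fluctuating flies of 15 °C, and 1 to 7 in constant and 1 to 5 in fluctuating flies of 25 °C. For the interactions of mean temperature with fluctuation, mean temperature with ramping and fluctuation with ramping it gave 0 to 8, 0 to 2 and 0 to 0. Replicates 1 and 2 of the ramped 15 °C fluctuating group moved most of these counts: without replicate 1, 8 genes were called for fluctuation at 15 °C after ramping, and for ramping 9 in constant and 7 in fluctuating flies of 15 °C and 7 in constant flies of 25 °C, and 8 and 2 for the first and second interaction. Without replicate 2, the same counts were 0 for fluctuation at 15 °C after ramping, 9 and 7 for ramping in the constant regimes, 6 for mean temperature in fluctuating flies after ramping and 0 for the first interaction. Without replicate 1 or 2 of the ramped 15 °C fluctuating group, 1 array of that group was left. The shares over all probe sets are not given for any of these omissions. The first interaction gave 1 call without any 1 of 7 further arrays, and the second 1 without replicate 1 of 15 °C fluctuating at 20 °C or replicate 3 of ramped 25 °C fluctuating. Of the named differences under these omissions, 2724 kept their direction and side of the threshold, 96 lost it and 9 gained it. The difference in a single contrast cannot change when the array left out belongs to another group, so part of the 2724 was fixed in advance.

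For the settings that follow, the shares over all probe sets are not given. The counts alone cannot tell a change in Obp genes from one in all calls. On all 24 arrays, with the failed array, 6, 0 and 2 genes were called for the averages. The counts were 2, 1, 1 and 3 for the single mean temperature contrasts and 0 for each fluctuation contrast, ramping contrast and interaction. There the average mean temperature difference of Obp44a was 0.39, that of Obp83ef among ramped fluctuating flies -0.41 and that of Obp8a there 0.50, the ramping average of Obp56f was -0.24 and its interaction 0.39, all opposite in sign to the values on 23 arrays. The other probe set of Obp19c gave 0.14 for mean temperature (adjusted p = 0.0094), where the first gave -0.27, and the other probe set of Obp19a gave -0.78 for ramping (adjusted p = 0.0313).

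For fluctuation at 25 °C after ramping, where 0 genes were called, 22 arrays (also without 15 °C constant, 20 °C, replicate 1) and a variance trend gave 2 and the limit to means of at least 4 gave 1. The arrays of the contrast alone gave 0 for fluctuation at 15 °C after ramping, 1 for ramping in 15 °C fluctuating and 7 in 25 °C constant flies, where arrays centred on the median gave 2. For the interaction of mean temperature with fluctuation, the trend, the limit and centring each gave 4, and for that of mean temperature with ramping each gave 1. At a threshold of 0.01, the counts were 8 for mean temperature in constant flies at 20 °C, 3 for the fluctuation average, 1 for fluctuation at 15 °C after ramping, for ramping 2 in constant and 1 in fluctuating flies of 15 °C and 1 in constant flies of 25 °C, and 0 for the first interaction. The cause of these shifts was not tested. With the replicate number as a block, 1 gene was called for the interaction of mean temperature with fluctuation (Obp56f, while Obp8a had an adjusted p of 0.0596). The block also lost the calls of Obp83ef for mean temperature in ramped fluctuating flies, Obp56e for fluctuation at 15 °C after ramping, and for ramping Obp99c in constant and Obp51a in fluctuating flies of 15 °C and Obp57b in fluctuating flies of 25 °C (adjusted p = 0.0506 to 0.0669 over all 6 losses), and it gained 7 calls, among them those of Obp83b and Obp69a for ramping in both constant regimes. The counts for ramping in constant flies were then 6 at 15 °C and 6 at 25 °C. The median correlation of deviations from group means was 0.0046 over 77 pairs of arrays with the same replicate number and 0.0050 over 154 pairs of different numbers. Pairs of the same number ranged from -0.438 to 0.565, and 10 of the 77 lay above 0.1. A median over all pairs cannot tell whether the numbers pair some of the arrays.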

Other observations

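Obp50b and Obp50c share 2 probe sets, with means of 6.99 and 8.72, which differed by -0.47 and -0.49 between 25 and 15 °C flies (limma, adjusted p under 0.05 for both). Obp57d shares 2 probe sets with the cuticle gene Cpr57A. One, with a mean of 6.84, differed by -0.21 with mean temperature, and the other, with a mean of 3.97, by 0.63 with ramping. Which of the genes in each pair moved cannot be told apart from these probe sets.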
